A study of Mus musculus with 9 samples.

Results

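The circadian clock genes described here were Nr1d1, Nr1d2, Dbp, Tef, Per1, Per2, Per3, Cry1, Arntl and Clock, 10 of the 55536 genes counted in each library. They were taken by symbol from the GENCODE M21 annotation, and the set was chosen by their counts in these same libraries, in which several of them differed between the genotype labels. Their differences between labels are therefore given as a description, with no test. All 10 passed the filter on low counts, which kept 16039 genes. The libraries came from quadriceps of C57BL/6 mice aged 6 weeks after volumetric muscle loss, an injury in which a piece of muscle is cut away. There were 4 libraries labelled WT, from wild-type mice, and 5 labelled Il17ra-/-, from mice meant to lack a receptor subunit for interleukin-17 cytokines. For both groups alike, the sample characteristics gave saline and a harvest 1 week after surgery, whereas the extraction protocol gave PCL and a collection 6 weeks after surgery. The design text spoke of triplicate animals, no label tied a library to an animal, and the labels used here gave neither the hour of collection nor the exons removed by the allele.

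Total counts ran from 31294089 to 46435401 per library, with the highest total in Il17ra-/- replicate 2 and the lowest in WT replicate 2. WT replicate 2 stood apart on the first principal component of log2 CPM, the counts scaled to a common library size with TMM factors, and Il17ra-/- replicate 1 on the second. Il17ra itself went against its label, at 75.9, 107, 85.4 and 119 CPM in the libraries labelled WT and at 200, 185, 181, 284 and 192 CPM in those labelled Il17ra-/- (log2 fold change 1.11, SE 0.17, edgeR adjusted p = 0.00208). All directions below refer to the labels as given. As a check of the labelled tissue, the summed level of 12 fast fibre genes was 1449 to 3550 CPM in the libraries labelled WT and 3494 to 4797 CPM in those labelled Il17ra-/-. The sum of 8 fibroblast genes was far higher in every library, at 47340 to 66346 CPM. Of 9 leukocyte genes, 6 (Ptprc, Adgre1, Cd3e, Cd79a, S100a8 and Itgam) stayed under 1 CPM in all 9 libraries. Libraries labelled quadriceps thus held mostly fibroblast transcripts among these lists and few of leukocytes. Whether they were made from whole muscle or from a part of its cells was not tested.

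The molecular clock is a feedback loop of transcription factors that most cells carry, skeletal muscle fibres and fibroblasts included. CLOCK and BMAL1, the product of Arntl, bind E-box motifs and switch on the period, cryptochrome, REV-ERB and PAR bZIP genes. PER and CRY proteins return to the nucleus and inhibit CLOCK and BMAL1, while the REV-ERB proteins encoded by Nr1d1 and Nr1d2 repress Arntl, Clock, Cry1 and Nfil3 through RORE motifs. DBP and TEF, activators of the PAR bZIP family, bind D-box motifs and are opposed there by NFIL3. In tissues outside the brain the transcripts peak in a known order over the day, with Nr1d1 and Dbp early, then Nr1d2, Per3 and Tef, then Per1 and Per2, then Cry1, and Clock and Arntl last, opposite to Nr1d1. In muscle the clock is known for setting daily rhythms of glucose uptake and fuel use.

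Promoter sequence was compared with these motifs because the rule that chose the genes did not use it. RefSeq windows on GRCm38.p6, from 250 bases before to 50 after a start, were found for 9 of the 10 genes, in 14 windows. The gene without a window was Per2, so its promoter was not searched. The motifs searched, on both strands, were the E-box CACGTG, the E-prime box CACGTT, the D-box forms TTATGTAA and TTACGTAA, the cyclic AMP response element TGACGTCA and the RORE, the REV-ERB site. For each gene with a match, 1 piece that holds it is shown 5′ to 3′ on the gene's own strand, with the matched letters in capitals. AACGTG is the E-prime box read on the opposite strand.

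Nr1d1 (E-prime box), chr11:98775378-98775627, minus strand: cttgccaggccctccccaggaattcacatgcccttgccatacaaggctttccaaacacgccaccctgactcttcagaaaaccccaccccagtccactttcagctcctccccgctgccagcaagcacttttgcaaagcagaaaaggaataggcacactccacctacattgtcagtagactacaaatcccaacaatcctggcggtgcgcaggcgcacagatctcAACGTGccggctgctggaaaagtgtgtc
Tef (E-box, second start), chr15:81811254-81811303, plus strand: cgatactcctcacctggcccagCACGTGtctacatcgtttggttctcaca
Per3 (D-box), chr4:151044796-151044885, minus strand: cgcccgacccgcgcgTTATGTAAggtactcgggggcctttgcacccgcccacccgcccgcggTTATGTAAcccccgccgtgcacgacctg
Per1 (E-box), chr11:69098759-69098808, plus strand: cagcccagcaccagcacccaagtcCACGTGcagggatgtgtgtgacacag
Cry1 (E-prime box and E-box), chr10:85185085-85185164, minus strand: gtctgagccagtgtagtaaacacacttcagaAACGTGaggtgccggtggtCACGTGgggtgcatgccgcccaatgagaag
Arntl (RORE, second start), chr7:113207528-113207556, plus strand: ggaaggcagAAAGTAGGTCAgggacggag

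The E-box was present for 3 of the 9 genes (Tef, Per1 and Cry1) and in 7.15% of all 32851 promoter windows. Here and below, a gene counts if any of its windows matches, whereas the percentages are of single windows. The measures are therefore unlike. Tef held it in the windows of both a first start, from 127 to 122 bases before it, and the second start shown. The E-prime box was present for Nr1d1 and Cry1 and in 4.68% of all windows. Per3 held the D-box at 2 places, from 205 to 198 and from 158 to 151 bases before its start, whereas 0.938% of all windows held that form at all. The RORE lay in the Arntl window from base 26 to base 36 after the second start, inside an annotated exon, and in 0.384% of all windows. No window of Nr1d2, Dbp or Clock held any of these letters, and none of the 9 genes held the cyclic AMP response element, found in 1.79% of all windows. The genes with a matched motif included both genes that differed widely between labels, such as Nr1d1, and genes that did not, such as Per1. A match is a description of letters and not of binding.

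Of the 10 genes, 3 passed the transcriptome-wide threshold as higher in the libraries labelled Il17ra-/- (Nr1d1, Nr1d2 and Dbp), 1 as lower (Per2), and 6 did not pass. The threshold was an edgeR adjusted p under 0.05. Over all tested genes, 1.35% were called higher, 1.71% lower and 3.06% in either direction, and nothing is read from the comparison of these shares because the contrast chose the genes. The same 4 genes were those whose 2 groups of libraries did not overlap, against 4.63% of all tested genes apart as higher, 4.56% as lower and 9.18% in either direction. The median log2 fold change of the 10 genes was 0.10, beside −0.0027 over all tested genes. Values are from bulk libraries, in which fewer cells of a type and less RNA per cell cannot be told apart.

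**Figure D1:**
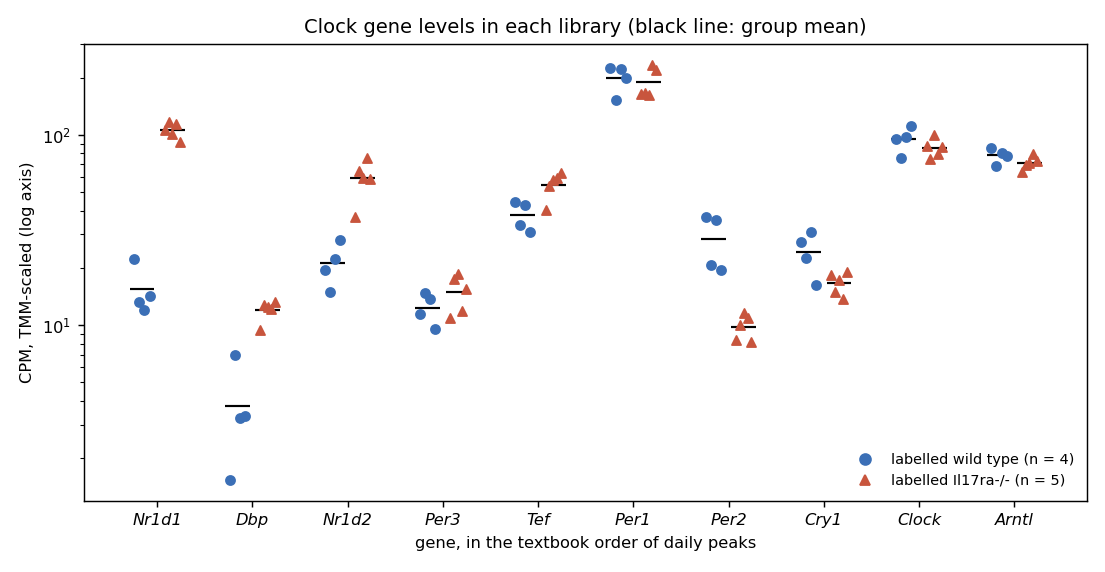
CPM of the 10 clock genes in each library on a log axis, with 4 libraries labelled WT and 5 labelled Il17ra-/- and a bar at each group mean. Nr1d1 lies at 12.1 to 22.4 CPM under the first label and 91.5 to 117 CPM under the second, Per2 lies lower under the second label without overlap, and Per1, Clock and Arntl overlap.

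The REV-ERB genes were the repressor arm of the loop with the widest difference. Nr1d1, which encodes REV-ERB alpha, stood at 22.4, 13.3, 12.1 and 14.3 CPM in WT replicates 1 to 4 and at 106, 117, 101, 115 and 91.5 CPM in Il17ra-/- replicates 1 to 5. Every library labelled Il17ra-/- lay above every library labelled WT, and WT replicate 1 was the highest of its group. The log2 fold change was 2.77 (SE 0.18), from 15.5 ± 4.65 CPM (SD, n = 4) to 106 ± 10.4 CPM (SD, n = 5), a ratio of means of 6.84. This was the 29th highest log2 fold change among the 16039 tested genes. Between 406 and 5507 counts lay behind each value.

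In the GRCm38 annotation, Nr1d1 spans 98767932 to 98775333 of chromosome 11 (minus strand, 8 merged exons). Its exons share 263 bases, 8.55% of their length, with those of Thra, the thyroid hormone receptor alpha gene on the opposite strand, and counting ignored strand. Thra stood at 185 ± 25.9 CPM (n = 4) and 212 ± 11.8 CPM (n = 5), with overlapping groups (log2 fold change 0.20, SE 0.11, edgeR adjusted p = 0.405). Within a library, the log2 ratio of Nr1d1 to Thra ran from −4.10 to −3.16 under the label WT and from −1.23 to −0.79 under the label Il17ra-/-.

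Nr1d2 encodes REV-ERB beta, the partner of REV-ERB alpha with overlapping function. It stood at 19.6, 14.9, 22.3 and 28.0 CPM in WT replicates 1 to 4 and at 37.1, 64.9, 59.4, 75.5 and 58.6 CPM in Il17ra-/- replicates 1 to 5. The groups did not overlap, and Il17ra-/- replicate 1 was the lowest of its group. The log2 fold change was 1.48 (SE 0.21), from 21.2 ± 5.47 to 59.1 ± 14.0 CPM, and the gene on chromosome 14 (18204054 to 18239127, minus strand, 8 merged exons) shares no exon base with another gene. The difference was smaller than that of Nr1d1 in the same libraries. The log2 ratio of Nr1d1 to Nr1d2 was −0.97 to 0.19 under the label WT and 0.61 to 1.51 under the label Il17ra-/-.

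The PAR bZIP genes carry the output of the loop. Dbp, the D-box activator with the deepest daily rhythm of the family, stood at 1.53, 6.95, 3.24 and 3.33 CPM in WT replicates 1 to 4 and at 9.41, 12.8, 12.5, 12.2 and 13.3 CPM in Il17ra-/- replicates 1 to 5. The groups did not overlap, and WT replicate 2 was the nearest to the other group. The log2 fold change was 1.68 (SE 0.33), from 3.77 ± 2.28 to 12.04 ± 1.52 CPM. The libraries labelled WT were spread widely, with a coefficient of variation of 60.6%, against 12.6% in those labelled Il17ra-/-. Between 56 and 601 counts lay behind each value, the fewest of the 4 called genes.

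Dbp spans 45705088 to 45710203 of chromosome 7 (plus strand, 4 merged exons). Of their length, 539 bases or 18.0% are shared with Sphk2, a sphingosine kinase gene on the opposite strand. Sphk2 stood at 19.5 ± 5.97 and 20.8 ± 3.04 CPM with overlapping groups, at a log2 fold change of 0.10 (SE 0.20, edgeR adjusted p = 0.854), and this value was −0.063 without WT replicate 4. Set against Sphk2 within a library, Dbp ran from −3.46 to −1.90 on the log2 scale under the label WT and from −0.93 to −0.59 under the label Il17ra-/-, so that the groups did not overlap on this scale either.

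Tef, a second PAR bZIP activator, stood at 44.6, 33.7, 42.8 and 30.9 CPM in WT replicates 1 to 4 and at 40.2, 54.1, 57.7, 59.4 and 63.3 CPM in Il17ra-/- replicates 1 to 5. The groups overlapped through Il17ra-/- replicate 1 alone, which lay below WT replicates 1 and 3. Its log2 fold change of 0.53 (SE 0.15) did not pass the threshold, and without Il17ra-/- replicate 1 it did. The gene lies on chromosome 15 (81802421 to 81826863, plus strand, 10 merged exons), and the gene model Gm17597 shares 193 bases, 2.45%, of its exons. The log2 ratio of Dbp to Tef ran from −4.849 to −2.276 under WT and from −2.284 to −2.079 under Il17ra-/-. The overlap was narrow and came through WT replicate 2 alone, at −2.276. WT replicates 1, 3 and 4, at −4.849, −3.717 and −3.211, lay below every library labelled Il17ra-/-. The group means were −3.51 and −2.18.

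Nfil3, which binds the D-box as a repressor and peaks opposite to Dbp, moved the other way. It stood at 156, 248, 152 and 154 CPM in WT replicates 1 to 4 and at 42.8, 58.4, 59.0, 63.0 and 84.9 CPM in Il17ra-/- replicates 1 to 5. The groups did not overlap, with WT replicate 2 the highest library. The gene fell by 1.53 on the log2 scale (SE 0.19, edgeR adjusted p = 0.000581). Within a library, the log2 ratio of Dbp to Nfil3 ran from −6.66 to −5.15 under the label WT and from −2.67 to −2.18 under the label Il17ra-/-.

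The 3 period genes, which encode the PER repressors, differed from one another. Per2 stood at 37.0, 20.8, 35.9 and 19.4 CPM in WT replicates 1 to 4 and at 8.40, 9.98, 11.6, 10.9 and 8.14 CPM in Il17ra-/- replicates 1 to 5. No library labelled Il17ra-/- reached the lowest library labelled WT, and within the label WT replicates 2 and 4 were low and replicates 1 and 3 high. The log2 fold change was −1.53 (SE 0.21), from 28.3 ± 9.47 to 9.81 ± 1.52 CPM, with 330 to 1349 counts behind each value. Per2 spans 91415982 to 91459324 of chromosome 1 (minus strand, 24 merged exons) and shares no exon base with another gene.

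Per1 was the most abundant of the 10 genes per library total and showed no such difference. It stood at 224, 153, 222 and 198 CPM in WT replicates 1 to 4 and at 164, 167, 163, 234 and 220 CPM in Il17ra-/- replicates 1 to 5. Both groups held low and high libraries over the same range, at a log2 fold change of −0.07 (SE 0.15) that did not pass. It spans 69095217 to 69109960 of chromosome 11 (plus strand, 24 merged exons). The log2 ratio of Per1 to Per2 was 2.60 to 3.35 under the label WT and 3.81 to 4.76 under the label Il17ra-/-, without overlap.

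Per3 stood at 11.4, 14.7, 13.8 and 9.50 CPM in WT replicates 1 to 4 and at 10.9, 17.6, 18.5, 11.9 and 15.5 CPM in Il17ra-/- replicates 1 to 5. The groups overlapped widely, and the log2 fold change of 0.27 (SE 0.19) did not pass. This gene, the one with the D-box pair shown above, spans 151003652 to 151044665 of chromosome 4 (minus strand, 23 merged exons).

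Cry1, the cryptochrome that inhibits CLOCK and BMAL1 late in the cycle, stood at 27.4, 22.5, 30.8 and 16.2 CPM in WT replicates 1 to 4 and at 18.3, 14.9, 17.2, 13.7 and 19.0 CPM in Il17ra-/- replicates 1 to 5. The groups overlapped through WT replicate 4 alone, and the other 3 libraries labelled WT lay above all those labelled Il17ra-/-. The log2 fold change of −0.54 (SE 0.18) did not pass with all libraries and passed without WT replicate 4, at −0.69. Cry1 spans 85131700 to 85185064 of chromosome 10 (minus strand, 13 merged exons). Relative to Cry1 in the same library, the log2 level of Per2 was −0.12 to 0.43 under the label WT and −1.23 to −0.33 under the label Il17ra-/-, so that this ratio did not overlap either.

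The activators showed no difference past the threshold. Arntl, which encodes BMAL1, stood at 85.7, 69.1, 79.9 and 77.4 CPM in WT replicates 1 to 4 and at 64.0, 69.5, 71.0, 79.3 and 72.6 CPM in Il17ra-/- replicates 1 to 5. The groups overlapped, at a log2 fold change of −0.13 (SE 0.10), and the coefficients of variation of 8.86% and 7.77% were small in both groups. Arntl spans 113207465 to 113314126 of chromosome 7 (plus strand, 22 merged exons), and the gene model Gm45355 shares 33 of its exon bases.

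Clock stood at 95.2, 75.7, 97.4 and 112 CPM in WT replicates 1 to 4 and at 87.3, 75.0, 100.1, 79.7 and 86.3 CPM in Il17ra-/- replicates 1 to 5. The groups overlapped and the log2 fold change of −0.15 (SE 0.13) did not pass. Clock spans 76209868 to 76304792 of chromosome 5 (minus strand, 24 merged exons). The log2 ratio of Arntl to Clock differed by 0.01 between the labels and overlapped, from −0.53 to −0.13 under WT and from −0.50 to −0.01 under Il17ra-/-.

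**Figure D2:**
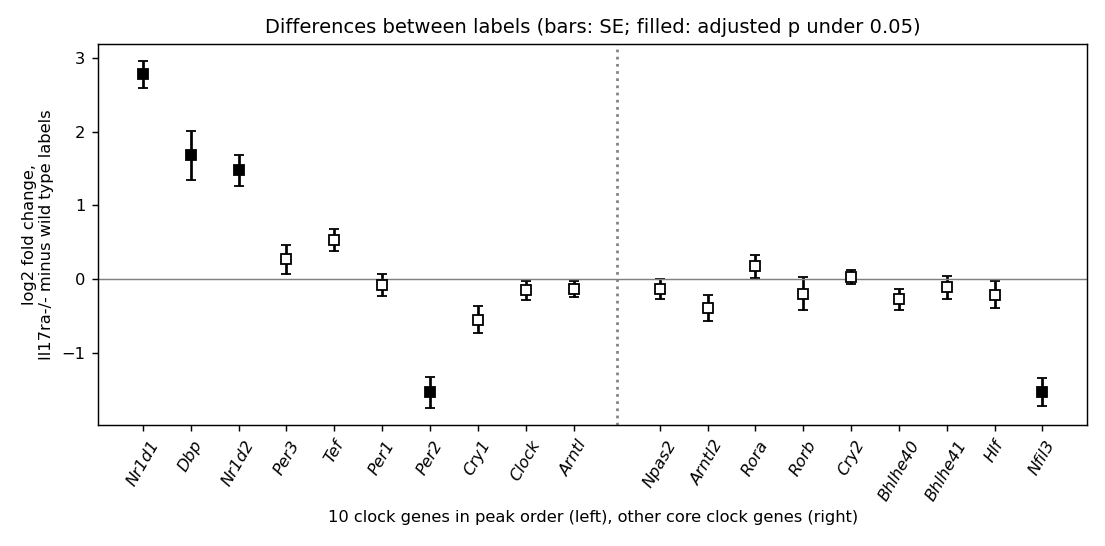
Log2 fold change, labelled Il17ra-/- minus labelled WT, of the 10 clock genes in the order of their known daily peak, with bars of 1 SE and filled squares for genes past the threshold; other core clock genes stand to the right, among them Nfil3 at −1.53. Nr1d1, Dbp and Nr1d2 lie at 2.77, 1.68 and 1.48, Per2 at −1.53, and the late genes Clock and Arntl at −0.15 and −0.13.

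Read in the known order of their daily peaks, the early genes Nr1d1 and Dbp were higher in the libraries labelled Il17ra-/-, as was Nr1d2 of the next phase, while Per3 and Tef of that phase had positive values that did not pass, Per1 lay near 0, Per2 was lower, and Cry1, Clock and Arntl had negative values that did not pass. The order was not even. Nr1d2 differed by 1.48 where Per3 and Tef, of the same phase, differed by 0.27 and 0.53. Per2 differed by −1.53 and Per1, its neighbour in phase, by −0.07, and Arntl, the gene most directly opposite to Nr1d1, by −0.13 where Nr1d1 differed by 2.77. With 1 collection per library and the hour of collection not analysed here, a difference in time of day between the labelled groups and a difference between the genotypes cannot be told apart.

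A ratio of 2 clock genes inside a library does not depend on how libraries are scaled. The widest separation among the ratios computed was that of Nr1d1 to Per2, an early and a later gene of the order that differed in opposite directions. Its log2 value was −0.84 ± 0.50 (SD, n = 4) under the label WT, from −1.57 to −0.44, and 3.44 ± 0.20 (SD, n = 5) under the label Il17ra-/-, from 3.12 to 3.66. The ratio of Nr1d1 to Arntl, genes of opposite phase, ran from −2.73 to −1.94 and from 0.33 to 0.75, so that Nr1d1 was below Arntl in each library labelled WT and above it in each labelled Il17ra-/- in scaled counts not divided by length.

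**Figure D3:**
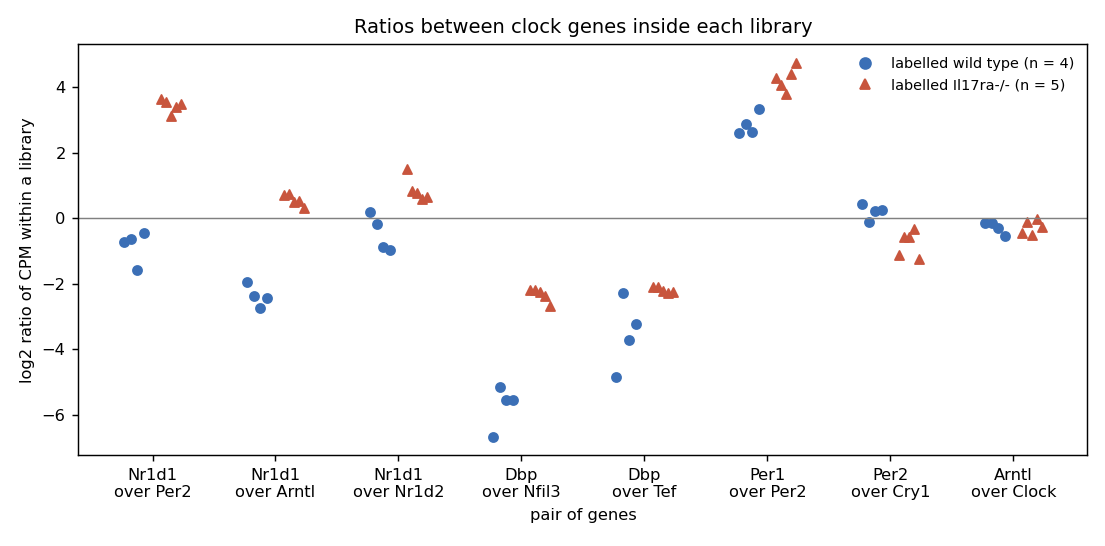
Log2 ratios of pairs of genes within each library, with the 4 libraries labelled WT and the 5 labelled Il17ra-/- as points. Nr1d1 to Per2 lies at −1.57 to −0.44 under the first label and 3.12 to 3.66 under the second. Arntl to Clock overlaps, and Dbp to Tef overlaps through WT replicate 2 alone.

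Levels were compared between genes as CPM per kilobase of exon. In the libraries labelled WT, Per1 was highest at 35.4 ± 5.87 (SD, n = 4), with its lowest library above the highest of the next gene, Arntl, at 10.4 ± 0.92. Cry1 (7.25 ± 1.90), Clock (6.93 ± 1.09), Nr1d1 (5.04 ± 1.51), Tef (4.83 ± 0.85), Per2 (4.83 ± 1.62) and Nr1d2 (3.92 ± 1.01) followed, and each overlapped its neighbour in the order. Per3 (1.28 ± 0.24) lay below Nr1d2 without overlap, and Dbp was last at 1.26 ± 0.76, not separated from Per3.

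In the libraries labelled Il17ra-/-, Nr1d1 at 34.5 ± 3.39 CPM per kilobase (SD, n = 5) and Per1 at 33.7 ± 6.18 shared the top of the order and overlapped. Nr1d2 (10.9 ± 2.59), below Per1 without overlap, was followed by Arntl (9.48 ± 0.74), which lay above Tef (6.98 ± 1.13), Clock (6.24 ± 0.69) and Cry1 (4.98 ± 0.67). Dbp (4.02 ± 0.51) came next and lay above Per2 (1.68 ± 0.26) and Per3 (1.55 ± 0.35), which overlapped. Between the orders of the 2 labels, Nr1d2, Nr1d1, Dbp and Tef stood higher and Cry1, Per2, Clock, Arntl, Per1 and Per3 lower, in part through exchanges among genes whose levels overlapped.

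**Figure D4:**
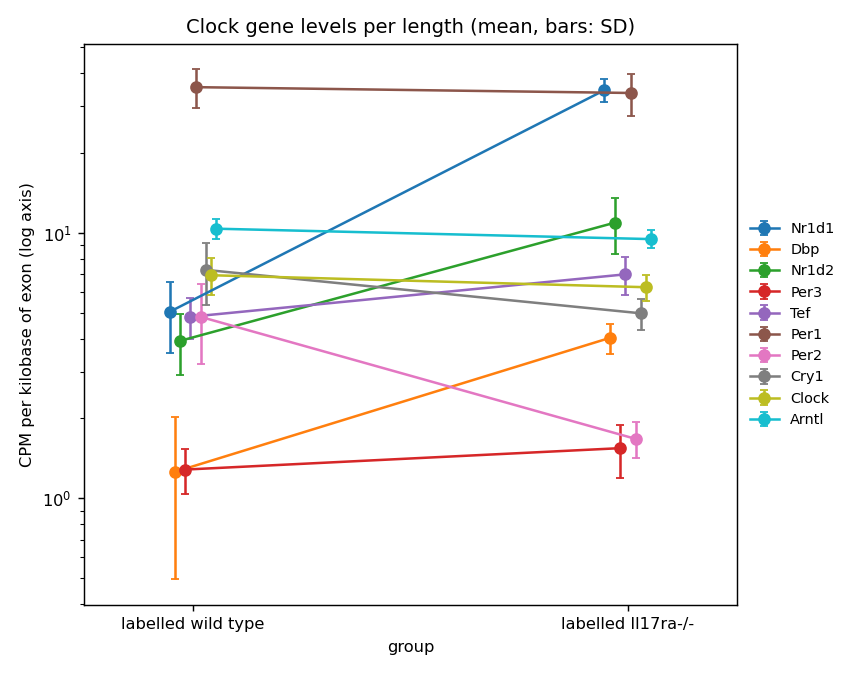
Mean level of the 10 clock genes as CPM per kilobase of exon in the libraries labelled WT and Il17ra-/-, on a log axis, with bars of 1 SD. Per1 stays near 35.4 and 33.7, while Nr1d1 goes from 5.04 to 34.5 and Per2 from 4.83 to 1.68.

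Libraries of one label also differed among themselves, on the scale of log2 CPM relative to the mean of their label. Among the libraries labelled WT, replicate 1 had the highest Nr1d1 (0.57 above the mean) and the lowest Dbp (1.09 below it, at −1.09), while replicate 2 had the highest Dbp (1.08). Nr1d1 and Dbp thus did not rank these 4 libraries alike. Il17ra-/- replicate 1 was the lowest of its group for Nr1d2 (−0.63), Tef (−0.43), Per3 (−0.41) and Dbp (−0.34) together, but not for Nr1d1. Nr1d1 and Dbp lay on the same side of their group means in 3 of 9 libraries, Nr1d1 and Nr1d2 in 3 of 9, and Cry1 and Clock in 8 of 9. These deviations are descriptions of few libraries, and WT replicate 2 and Il17ra-/- replicate 1 are the libraries that stood apart over all genes.

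Most markers of slow muscle fibres and of the contractile cells of vessel walls were higher under the label Il17ra-/-, beside the clock genes. The part of these and of the other cell markers below in the clock values was not tested. Of 7 slow fibre genes, 6 passed as higher. Over all tested genes, 1.35% passed as higher and 1.71% as lower, beside this list and the marker lists that follow. The summed level of the 7 slow fibre genes was 368 to 500 CPM under the label WT and 525 to 839 CPM under the label Il17ra-/-. Most of this sum under the label WT came from Atp2a2, the 1 slow fibre gene that did not pass. Its means were 372 CPM under WT and 357 CPM under Il17ra-/- (log2 fold change −0.06). Myh7, the slow myosin heavy chain, stood at 21.5, 2.56, 9.39 and 6.77 CPM in WT replicates 1 to 4 and at 87.5, 89.1, 107, 93.2 and 48.0 CPM in Il17ra-/- replicates 1 to 5 (log2 fold change 3.07, SE 0.45, edgeR adjusted p = 0.00177). Within a label, Nr1d1 and Myh7 ranked the libraries alike in part. Both were highest in WT replicate 1 of their label and lowest in Il17ra-/- replicate 5, whereas Il17ra-/- replicate 3 had the highest Myh7 and an Nr1d1 of 101 CPM, the next to lowest, and WT replicate 2 the lowest Myh7 but not the lowest Nr1d1. Dbp was lowest in WT replicate 1 and highest in Il17ra-/- replicate 5, opposite to both.

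Of 12 fast fibre genes, 2 passed as higher, Myh2 (log2 fold change 1.95, edgeR adjusted p = 0.00838) and Acta1 (0.94, adjusted p = 0.0289). Of 6 genes of mural cells, the contractile cells around vessels, 5 passed as higher, at a summed level of 998 to 1278 CPM under the label WT and 1676 to 2347 CPM under the label Il17ra-/-. Of 3 satellite cell genes, 2 passed as higher, Pax7 and Cdh15, at a sum of 50.1 to 76.1 and 104 to 130 CPM. Of 4 adipocyte genes only Adipoq passed, as higher. Of 8 fibroblast genes, Pi16 passed as lower (log2 fold change −0.55, edgeR adjusted p = 0.0207), and of 5 tested leukocyte genes, Cd68 (−2.80, adjusted p = 0.000217). None of 6 endothelial genes and none of 5 Schwann cell genes passed. Without WT replicate 3 or Il17ra-/- replicates 1, 2, 3 or 4 only 1 fast fibre gene passed, and Pi16 did not pass without WT replicate 3 or Il17ra-/- replicates 1, 3 or 4, or Adipoq without any of WT replicates 1, 2 and 4 and Il17ra-/- replicates 1 to 4. Summed levels were 261 to 456 and 301 to 379 CPM for endothelium, 212 to 326 and 168 to 229 CPM for Schwann cells, 2.07 to 6.82 and 7.90 to 28.4 CPM for adipocytes and 18.7 to 35.7 and 8.49 to 15.6 CPM for leukocytes. Cd68 carried most of the leukocyte difference, with means of 17.9 and 2.58 CPM, whereas Lyz2 had means of 9.17 and 8.26 CPM. Ptprc, Csf1r and Adgre1, at very low counts, had log2 fold changes of 1.205, 0.75 and 0.93 that did not pass. The leukocyte list therefore did not move in 1 direction.

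The other genes of the core loop mostly did not pass. Of 11 listed, 10 were tested, and Nfil3 was the only one called (0 higher, 1 lower), with a median log2 fold change of −0.16. Beside this list and the modifiers below, 1.35% of all tested genes passed as higher, 1.71% as lower and 3.06% in either direction. Values that did not pass were 0.18 for Rora and −0.19 for Rorb, which encode activators that compete with the REV-ERB proteins, 0.03 for Cry2, −0.13 for Npas2, −0.39 for Arntl2, −0.27 for Bhlhe40, −0.11 for Bhlhe41 and −0.21 for Hlf, the remaining PAR bZIP activator. Ciart was below the filter. Among 13 kinases, phosphatases and ubiquitin ligases that act on PER, CRY or CLOCK proteins, 1 passed, Prkaa2, the catalytic AMP-activated kinase subunit, which rose by 0.66 on the log2 scale (SE 0.13, edgeR adjusted p = 0.0150), from 16.7 ± 0.92 to 26.4 ± 3.72 CPM. The median of these modifiers was 0.04.

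Of 8 clock output genes, 3 passed as lower and none as higher, against 1.71% of all tested genes lower, with a median log2 fold change of −0.38. They were Coq10b (−1.67, SE 0.23, edgeR adjusted p = 0.00103), Tsc22d3, which encodes the glucocorticoid-induced leucine zipper (−1.18, SE 0.15, adjusted p = 0.000605), and Wee1, the mitotic inhibitor kinase (−1.11, SE 0.17, adjusted p = 0.00251). Wee1 went from 32.9 ± 5.47 to 15.3 ± 3.24 CPM, and the groups did not overlap.

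Of 9 genes listed as outputs of the muscle clock, 4 passed as higher and none as lower, against 1.35% of all tested genes higher, at a median of 0.74. Slc2a4, the insulin-responsive glucose transporter, rose by 1.21 on the log2 scale (SE 0.23, edgeR adjusted p = 0.0120), from 11.6 ± 3.80 to 26.9 ± 6.42 CPM. Fbxo32, a ubiquitin ligase of muscle atrophy (0.74), Tbc1d1, a regulator of glucose transporter traffic (0.72), and Pdp1, a pyruvate dehydrogenase phosphatase (0.54), were the others, with adjusted p of 0.0292, 0.0282 and 0.0396. The count fell to 1 without WT replicate 4, Il17ra-/- replicate 3 or Il17ra-/- replicate 4, and to 2 without WT replicate 3, Il17ra-/- replicate 1 or Il17ra-/- replicate 2. These are genes of muscle fibres. Of the fibre markers given above, 6 of 7 slow and 2 of 12 fast fibre genes passed as higher. The part of fibre content in the muscle clock outputs was not tested.

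Of 6 genes known to be repressed by REV-ERB proteins, clock genes of the set left out, 4 passed as lower and none as higher. The share of all tested genes called lower was 1.71%. The median of the 6 genes was −1.39. The list was chosen with earlier results of these data known, and REV-ERB activity was not tested. Among the 4, Nfil3 is described above, and the chemokine gene Ccl2 (log2 fold change −1.25, SE 0.24, edgeR adjusted p = 0.0113) did not overlap between the labels. The cytokine gene Il6 (−1.68, SE 0.40, adjusted p = 0.0375) overlapped, through WT replicate 1 at 162 CPM and Il17ra-/- replicate 5 at 164 CPM. Of the clock genes known as REV-ERB targets, Arntl, Clock and Cry1, none passed.

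**Figure D5:**
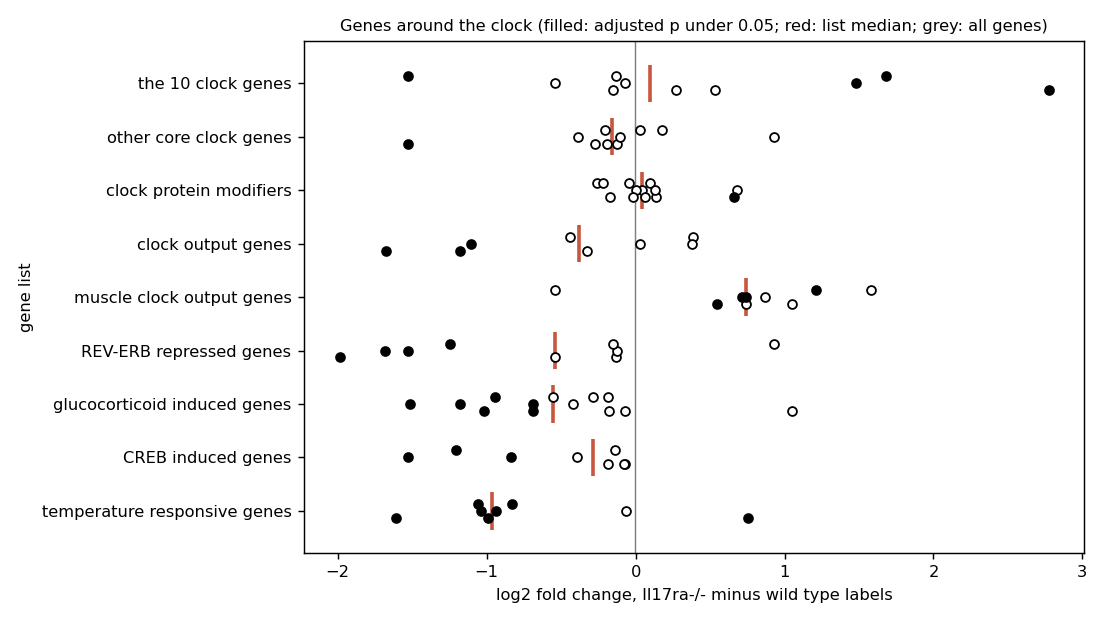
Log2 fold change, labelled Il17ra-/- minus labelled WT, of each tested gene in 9 lists, with filled points for genes past the threshold and a red bar at each list's median; a gene on several lists, clock genes included, appears in each. The median is 0.74 for muscle clock outputs and −0.38 for clock outputs, beside −0.0027 over all tested genes.

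Inputs known to reset the clock through period genes were described in the same way. The median of 12 genes induced by glucocorticoids other than Per1 was −0.62. Of these, 6 passed as lower and none as higher, against 1.71% of all tested genes lower. They were Mt2 (−1.51, SE 0.23, edgeR adjusted p = 0.00234), Tsc22d3, Errfi1 (−1.02), Ddit4 (−0.94), Fkbp5 (−0.69) and Cebpd (−0.69). Fkbp5, a chaperone of the glucocorticoid receptor, went from 42.0 ± 9.22 to 26.03 ± 1.46 CPM. The whole list, Per1 included, held 9 lower genes without WT replicate 2 and Il17ra-/- replicate 1, and 4 without WT replicate 3, Il17ra-/- replicate 2, Il17ra-/- replicate 3 or Il17ra-/- replicate 5.

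Of 6 genes induced through CREB, the factor that cyclic AMP activates, other than Per1 and Per2, 2 passed as lower, Crem (log2 fold change −1.20, SE 0.16, edgeR adjusted p = 0.000964) and Nr4a1 (−0.84, SE 0.20, adjusted p = 0.0346), with a median of −0.29. Nr4a1 did not pass without any 1 of WT replicates 1 to 4 or Il17ra-/- replicates 1 to 3. Of 8 genes that respond to temperature, 6 heat shock genes passed as lower and Cirbp, the cold-inducible RNA-binding protein gene, as higher, with a median of −0.96. Beside both the CREB and the temperature list, the shares over all tested genes were 1.71% lower and 1.35% higher. Cirbp went from 35.1 ± 4.21 to 59.3 ± 14.2 CPM (log2 fold change 0.76, SE 0.17, edgeR adjusted p = 0.0294), and its groups overlapped through Il17ra-/- replicate 1. Rbm3, the other cold-inducible gene of the list, had a log2 fold change of −0.064 (edgeR adjusted p = 0.891) with overlapping groups and did not pass. The heat shock genes were Dnajb1 (−1.61), Hsph1 (−1.06), Hspa1b (−1.04), Hspa1a (−0.99), Hsp90aa1 (−0.94) and Hspa8 (−0.83), all without overlap. Cirbp did not pass without WT replicate 3 or 4 or Il17ra-/- replicate 2, 3 or 4, and 4 heat shock genes in place of 6 passed without WT replicate 3 or Il17ra-/- replicate 1, 2 or 3.

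The genes whose log2 CPM ran most like that of Nr1d1 over the 9 libraries, among 11890 tested genes with a mean of at least 1 CPM, were Nup107 (Pearson r = 0.97), Alpk3 (0.97), Gprc5c (0.97), Arhgap28 (0.96) and Coq8a (0.96). The most opposite were Slbp (−0.98), Cdkn1a (−0.98), Tspan11 (−0.97), Glul (−0.97) and Dnajb1 (−0.97). The 9 points share the 2 labels and the scaling of their libraries, so a gene that is flat within each label and apart between them ranks high, and no p is given. Nup107, a nuclear pore subunit, moved little, from 17.6 ± 0.52 to 22.1 ± 0.59 CPM, and Cdkn1a, which encodes p21, a brake on cell division, from 349 ± 59.3 to 110.4 ± 8.44 CPM. No other clock gene was among these 10.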

How the data were processed

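RNA sequencing libraries of quadriceps were used, 4 labelled WT and 5 labelled Il17ra-/-. For each gene the authors deposited a raw count of read pairs. Per the file headers, featureCounts 1.6.0 assigned pairs to the exons of GENCODE M21 (GRCm38), ignored strand and added exons up by gene. The submitters' processing notes name the aligner STAR, without its version. Per the labels' protocols, libraries were made with TruSeq v2 from RNA with an integrity score above 8. By default such counting leaves out pairs that fall on several genes, so exons shared between genes on opposite strands lose or mix counts.

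Counts were filtered with filterByExpr, scaled with TMM and compared with edgeR 4.0.16 (R 4.3.3, quasi-likelihood test, two-sided, genotype label as the only term, all 9 libraries), with Benjamini-Hochberg adjustment over 16039 genes and a threshold of 0.05. The SE was obtained by dividing the log2 fold change by the root of the F statistic. CPM per kilobase used the exon length in the files, ratios a prior count of 0.5 and promoters RefSeq tables of GRCm38.p6. Alternatives used DESeq2 1.42.0, limma 3.58.1 (voom), other scalings and filters, and libraries left out. The test was run on simulated counts first. All 55536 identifiers and 149 list entries matched the annotation. Since nothing says that libraries came from separate mice, p-values measure the spread between these libraries, which may be technical. Counts of libraries of one label differed by more than sampling noise (chi-square per degree of freedom at least 29.5), so each was used as 1 replicate.

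The clock genes and all gene lists were chosen with earlier results of these data known. Named genes were the 10 clock genes, Il17ra, genes sharing exon bases with them, called genes of each clock list and the leading ones of the rest, leading cell type markers, and the 5 genes most like and most opposite to Nr1d1, leaving out numbered gene models and sex-linked genes. Further core clock genes given values and Rbm3 were named in addition, after their values were seen. Some list genes that the rule names are counted but not reported here.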

Additional observations from a re-analysis of the deposited data

Results flagged for a closer look

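In 7 of 140 gene and label groups, 1 library lay far from the others by Dixon's test at the 95% level, a rate that chance gives in about 1 of 20 groups. Among the clock genes this was Dbp, for which Il17ra-/- replicate 1 was lowest at 9.41 CPM, the next library being at 12.2 CPM and the highest at 13.3 CPM. Nfil3 was highest in WT replicate 2 at 248 CPM, the next being at 156 CPM. Il17ra was highest in Il17ra-/- replicate 4 at 284 CPM, the next being at 200 CPM. Tsc22d3 was lowest in Il17ra-/- replicate 2 at 130.1 CPM, the next being at 194 CPM. Mt2 was highest in WT replicate 2 at 638 CPM, the next being at 308 CPM, and Pdgfra, a fibroblast receptor, lowest there at 602 CPM, the next being at 930 CPM. Adipoq was highest in Il17ra-/- replicate 2 at 9.96 CPM, the next being at 4.47 CPM.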

How the results depend on the processing

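The calls of Nr1d1, Nr1d2, Dbp and Per2 and the signs of all 10 clock genes held in each of 18 alternatives. Log2 fold changes ranged from 2.68 to 3.01 for Nr1d1, 1.43 to 2.23 for Dbp, 1.35 to 1.65 for Nr1d2 and −1.67 to −1.37 for Per2. Tef passed in 4 alternatives, 1 of them DESeq2 (adjusted p 0.0251 to 0.229 over the 18), and Cry1 in 1. Of the other called genes, calls were lost in 9 of the 18 for Nr4a1 and Adipoq, 8 for Cebpd and Pdp1, 7 for Il6 and Hspa1b, 6 for Tbc1d1, Fbxo32, Ddit4, Cirbp and Acta1, 4 for Hspa1a and Pi16 and 2 for Fkbp5. The alternative without WT replicate 2 and Il17ra-/- replicate 1 together, which called 524 genes, was chosen after seeing the data. Leaving out 1 library gave 3 to 4 clock genes higher and 1 to 2 lower; 2 were lower without WT replicate 4. With all genes, 491 were called, 1017 by DESeq2, and 275 (without Il17ra-/- replicate 3) to 567 (without WT replicate 2) with 1 library left out. Scaling by library total moved the median of all genes to 0.06 and gave 330 higher and 232 lower, against 217 and 274. Sphk2 ran from −0.063 (without WT replicate 4) to 0.33 (without WT replicate 2 and Il17ra-/- replicate 1) with libraries left out. Replicate numbers did not pair the libraries (r between same-numbered deviations −0.05 to 0.06), and with a replicate block over replicates 1 to 4, 366 genes and the same numbers of clock genes (3 higher, 1 lower) were called, against 417 without Il17ra-/- replicate 5 and no block. Low counts limit Dbp most, with 56 in its lowest library.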
